A study of Mus musculus with 16 samples.

Results

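Amtn and Odam are 2 of the 23609 genes of a table of RNA-seq values from mouse mammary tumors, and they were set beside the 5 casein genes of the same table. Both genes were chosen on values of these tumors and for their place beside the caseins, so their levels, their difference between genotypes and their likeness to other genes are given as description, with no p-value. The tumors arose in mice that carry PyMT, the polyoma middle T antigen, whose expression from the MMTV promoter induces tumors of the mammary epithelium. Of these, 5 tumors came from wildtype x PyMT mice and 5 from gene trap x PyMT littermates that are Resf1 +/-. The gene trap strain, made on C57BL/6, carries a lentiviral insertion in Resf1 (exon 1) that cuts the transcript short, and it makes EGFP-cre. That strain was bred to FVB mice with PyMT, so every tumor of both groups carries the oncogene. Ages at collection, and which of the mammary glands each tumor came from, were not given in the sources used here.

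Amtn encodes amelotin and Odam encodes the odontogenic ameloblast-associated protein, secreted proteins of the cells that complete tooth enamel and of the gum epithelium that attaches to the tooth. Both belong to the secretory calcium-binding phosphoprotein family, which also holds the enamel matrix proteins and the caseins. Caseins are the main milk proteins and carry calcium phosphate in micelles, and their genes are switched on in luminal mammary cells by prolactin through STAT5. In the RefSeq order of mouse chromosome 5 (GRCm38.p6), the genes run Csn1s1, Csn2, Csn1s2a, Csn1s2b, Odam, Csn3, Smr3a, Smr2 and Amtn, with Ambn and Enam after Amtn. From Csn1s1 to Enam this order counts 16 protein coding genes, of which 9 were analysed here. Odam lies inside the casein cluster, with 1 protein coding gene between it and Csn1s2b and 1 between it and Csn3. Amtn lies outside it, with 5 protein coding genes between it and Csn3 and 7 between it and Odam.

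The promoters of both genes are shown beside that of Csn2, which encodes beta-casein, because the casein promoters are known targets of STAT5. Each run is the 250 bases before the transcription start on the gene's own strand, from RefSeq on GRCm38.p6. The Amtn run is chr5:88375858-88376107 on the plus strand, the Odam run is chr5:87884760-87885009 on the plus strand and the Csn2 run is chr5:87699426-87699675 on the minus strand. Capitals mark a match to the STAT5 motif TTCNNNGAA.
Amtn: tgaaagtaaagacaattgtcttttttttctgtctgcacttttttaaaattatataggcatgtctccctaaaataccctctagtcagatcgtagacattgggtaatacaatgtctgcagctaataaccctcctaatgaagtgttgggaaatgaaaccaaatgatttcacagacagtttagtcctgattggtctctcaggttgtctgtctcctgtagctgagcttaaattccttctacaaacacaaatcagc
Odam: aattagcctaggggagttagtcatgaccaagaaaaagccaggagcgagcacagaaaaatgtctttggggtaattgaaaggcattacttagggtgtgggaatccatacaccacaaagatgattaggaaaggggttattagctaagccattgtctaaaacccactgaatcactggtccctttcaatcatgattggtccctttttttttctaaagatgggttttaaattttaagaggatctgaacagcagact
Csn2: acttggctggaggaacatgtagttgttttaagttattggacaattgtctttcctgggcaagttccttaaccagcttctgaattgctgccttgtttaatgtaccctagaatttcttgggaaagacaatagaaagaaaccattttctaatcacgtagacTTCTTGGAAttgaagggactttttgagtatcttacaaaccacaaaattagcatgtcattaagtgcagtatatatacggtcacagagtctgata
The search covered these 250 bases and the 50 bases after the start, on both strands. TTCNNNGAA began 93 bases before the start of Csn2 and 100 bases before the start of Csn1s1, which encodes alpha-s1-casein, and in Csn1s2a it lay in the 50 bases after the start. These letters were not in the Amtn or Odam windows. They were in 2726 of 32851 promoters (8.3%). The letters TTGCNNCAA, searched for C/EBP factors, were in 683 promoters (2.08%) and in none of the Amtn, Odam, Csn1s1, Csn2 and Csn1s2a windows. This string was not checked against known C/EBP sites, so its absence says nothing on whether such sites are present. The table of promoters used has no entry for Csn1s2b and Csn3.

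The values are estimated counts per gene that the authors had scaled by median ratios so that tumors can be compared, called normalized values here. They summed to 31995078 to 42153593 per tumor, the reads behind a tumor are unknown, and values of different genes are compared only per kilobase of transcript. Resf1, the targeted gene, was at 4099 ± 400 in wildtype and 3516 ± 361 in gene trap tumors (mean ± SD, n = 5 each). Its log2 difference was -0.22 (SE 0.09), with an unadjusted p of 0.0313 and an adjusted p of 0.9997 by limma with Benjamini-Hochberg adjustment over 21034 genes, and the groups overlapped. The luminal markers Epcam (19190 to 25278), Krt8 (16809 to 24801) and Krt18 (18434 to 35379) were high in all 10 tumors. The tumor gene trap 2 stood apart from the others on the first principal component, which held 31.1% of the variance, and the log2 differences and main likenesses of Amtn and Odam are also given without it.

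Amtn (ENSMUSG00000029282) was lower in the gene trap tumors. In the wildtype tumors 1 to 5 its normalized values were 377, 299.7, 252.5, 240.1 and 168. In the gene trap tumors 1 to 5 they were 112, 139, 87.3, 57.45 and 184. The groups overlapped by a single pair, since wildtype 5 at 168 lay below gene trap 5 at 184, and the other 4 wildtype tumors were all above every gene trap tumor. The means were 267 ± 77.3 and 116 ± 48.4 (SD, n = 5 each), and the log2 difference was -1.26 (SE 0.30) on the log2(value + 1) scale, with the SE from the limma fit. Leaving out each tumor in turn gave log2 differences between -1.45 and -1.03, and -1.35 without gene trap 2. Among the 21034 tested genes, 43 (0.204%) had a larger log2 difference between genotypes in either direction, and 27 of these were lower in gene trap tumors. Since Amtn was chosen on values of these tumors, this share is a description. By limma 0 of the tested genes had an adjusted p under 0.05. In bulk tumors such as these, fewer cells that express Amtn and less Amtn RNA per cell cannot be told apart.

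Odam (ENSMUSG00000009580) was low in most tumors and high in a single gene trap tumor. Its normalized values were 22.4, 10.98, 14.1, 10.5 and 26.4 in the wildtype tumors 1 to 5. In the gene trap tumors 1 to 5 they were 129, 8.895, 7.56, 11.5 and 17.6. Gene trap 1 was the highest of all 10 tumors, and the other gene trap tumors lay within or below the wildtype range of 10.5 to 26.4. The means were 16.9 ± 7.13 in wildtype and 34.9 ± 52.7 in gene trap tumors (SD, n = 5 each), so the gene trap SD exceeded its mean. The log2 difference was 0.19 (SE 0.64), and 27.7% of the tested genes had a larger one. Without gene trap 1 the gene trap mean was 11.4 ± 4.47 (n = 4) and the log2 difference was -0.50 (SE 0.35), while without gene trap 2 the difference was 0.43 (SE 0.67).

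The spread of both genes over the 10 tumors was large against that of other genes. The SD of log2 values over all tumors was 0.836 for Amtn and 1.14 for Odam, and the median tested gene had 0.251. A larger SD was found for 3.23% of the tested genes in the case of Amtn and 0.956% in the case of Odam. Since both genes were chosen on values of these tumors, these shares are a description. Around the genotype means the SD was 0.542 for Amtn and 1.202 for Odam. Thus the spread of Amtn was smaller within the genotypes than over all tumors, and that of Odam was not.

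**Figure D1:**
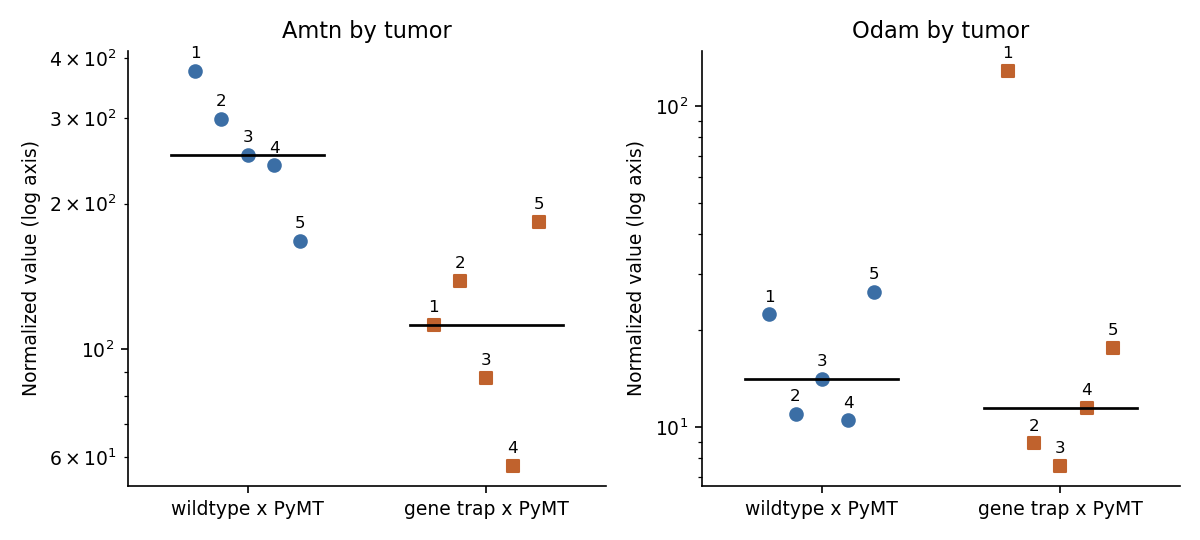
Normalized values (log axis) of Amtn and Odam in each of the 5 wildtype x PyMT tumors (circles) and 5 gene trap x PyMT tumors (squares), numbered by replicate, with a line at each group's median. For Amtn only wildtype 5 (168) falls among the gene trap tumors, and for Odam gene trap 1 (129) stands above all others.

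Per kilobase of transcript, both genes were far below Csn3, which encodes kappa-casein, the casein that stabilises the surface of the micelle. The mean level per kilobase over the 10 tumors was 187.5 for Amtn, with tumors from 56.2 to 369. It was 23.1 for Odam, with tumors from 6.74 to 115. Csn3 had a mean of 117560 per kilobase, 627 times that of Amtn and 5091 times that of Odam. The Odam mean rests on gene trap 1, without which it was 12.9 per kilobase and the mean of Csn3 was 9222 times as high. The order of mean levels per kilobase among the 9 analysed genes was Csn3, Smr3a (729), Csn1s1 (700.3), Csn2 (689), Csn1s2a (462.5), Amtn, Smr2 (43.0), Odam and Csn1s2b (19.8). The place of Smr3a also rests on gene trap 1, since its median was 22.5 per kilobase, and its mean without that tumor was 130.5 beside 196 for Amtn. Without the same tumor Odam was below Csn1s2b (19.7).

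This order was not the same in every tumor. Amtn was below Csn3 per kilobase in 10 of 10 tumors, below Csn1s1 in 9, below Csn2 in 7 and below Csn1s2a in 6, so its ranges overlapped those of the last 3 caseins. Amtn was above Csn1s2b, an alpha-s2-like casein, in 10 of 10 tumors and above Odam in 9, with gene trap 1 as the exception. Odam was above Csn1s2b in 2 of 10 tumors, gene trap 1 and gene trap 5, and these neighbours in the order had overlapping ranges (6.74 to 115 and 12.2 to 38.2 per kilobase). Odam was below Csn1s1, Csn2 and Csn3 in all 10 tumors. Amtn was above Smr3a in 7 of 10 tumors.

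**Figure D2:**
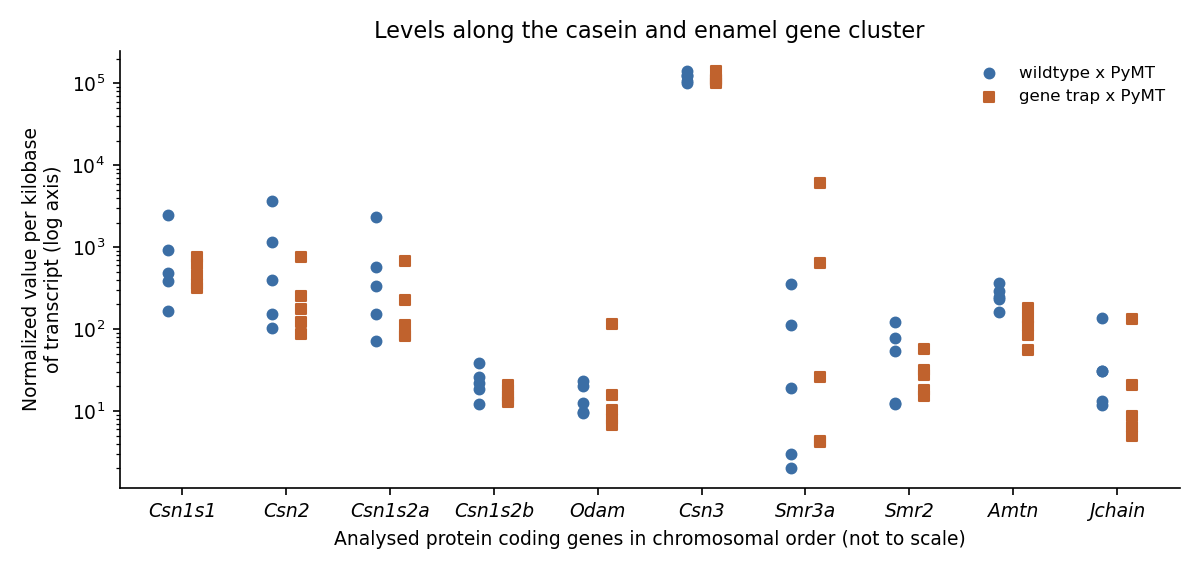
Normalized value per kilobase of transcript (log axis) in each tumor for the analysed protein coding genes in chromosomal order from Csn1s1 to Jchain, the gene that follows Enam, with circles for wildtype x PyMT and squares for gene trap x PyMT tumors. Csn3 lies at 101477 to 143562 per kilobase, Amtn at 56.2 to 369 and Odam at 6.74 to 115.

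The casein genes did not pass the test between genotypes. By limma, 0 of 5 had an adjusted p under 0.05, where 0 of all 21034 tested genes (0%) did, and 0 of 5 had an unadjusted p under 0.05, where 479 of the tested genes (2.28%) did, 278 higher and 201 lower in gene trap tumors. All 5 had a lower mean log2 value in gene trap tumors, with a median log2 difference of -0.45 beside 0.01 over all tested genes. The adjusted p was 0.9997 for each of the 5. The log2 differences were -1.24 (SE 0.89) for Csn2, -1.07 (SE 0.84) for Csn1s2a, -0.45 (SE 0.29) for Csn1s2b, -0.31 (SE 0.57) for Csn1s1 and -0.07 (SE 0.14) for Csn3. Csn2 thus had a log2 difference close in size to that of Amtn, with a larger SE.

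The caseins other than Csn3 varied widely between tumors of a genotype. Csn2 was at 92.4, 1038, 353, 135 and 3230 in the wildtype tumors 1 to 5 and at 157, 76.7, 109, 676 and 223 in the gene trap tumors 1 to 5. Wildtype 5 was the highest tumor for Csn2, Csn1s1 (3473), Csn1s2a (1982) and Csn1s2b (29.7), and for Amtn it was the lowest of the wildtype tumors. Without wildtype 5 the log2 difference of Csn1s1 turned to 0.21 (SE 0.42), and those of Csn2 and Csn1s2a were -0.52 (SE 0.73) and -0.38 (SE 0.69). That of Amtn was -1.41 (SE 0.30) without the same tumor. Csn3 varied least, with 129222 to 179150 in wildtype and 127658 to 180601 in gene trap tumors.

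Over all 10 tumors, the likeness of Amtn and of Odam to the summed caseins was weak, and it depended on which tumors were used. Likeness was measured as Pearson's r and Spearman's rho of log2(value + 1) over the 10 tumors, which share one normalization, and is a description. Amtn and Odam had r = -0.01 and rho = 0.18 with each other, r = -0.25 without the 2 tumors farthest from the median of Amtn, and r = 0.43 without gene trap 1. Without gene trap 2 it was -0.05. Amtn and the summed caseins had r = -0.14 and rho = -0.03. That value rests on few tumors, since it was 0.54 without the 2 farthest tumors and -0.54 as deviations from the genotype means, and without gene trap 2 it was -0.20. Odam and the summed caseins had r = -0.15 and rho = 0.18, and r = -0.01 without the 2 tumors farthest from the median of Odam. It was -0.28 without gene trap 2, and 0.50 after quantile normalization.

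The summed caseins are mostly Csn3, which made up 94.8% to 99.6% of the sum in a tumor. With each casein alone, the r of Amtn was -0.22 for Csn1s1, -0.03 for Csn2, -0.01 for Csn1s2a, 0.42 for Csn1s2b and -0.15 for Csn3. The r of Odam in the same order was 0.01, 0.06, 0.06, 0.43 and -0.17. Over all 10 tumors the casein most like either gene was thus Csn1s2b, the lowest of the 5. For Amtn this order turned without the 2 farthest tumors, where r was 0.10 with Csn1s2b, 0.56 with Csn3 and 0.44 with Csn2, and as deviations from the genotype means the r with Csn1s2b was 0.06. For Odam, rho was 0.62 with Csn1s2b and 0.47 with Csn1s2a, and without gene trap 1 the r was 0.75 and 0.58. The other caseins were more like each other, with r = 0.96 and rho = 0.87 for Csn2 and Csn1s2a, r = 0.83 for Csn1s1 and Csn2, and r = 0.80 for Csn2 and Csn3. Csn1s2b and Csn3 had r = 0.13.

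**Figure D3:**
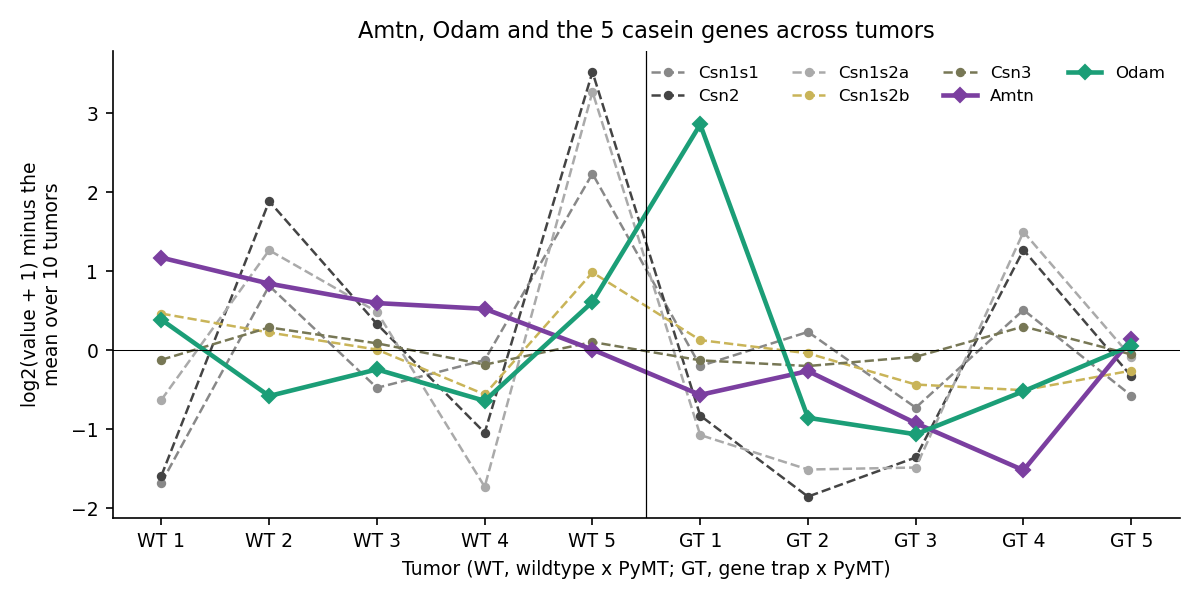
Log2(value + 1) minus the mean over 10 tumors for Amtn, Odam and the 5 casein genes in each tumor (WT, wildtype x PyMT, and GT, gene trap x PyMT). Lines join a gene's points and stand for no order of tumors. Csn2 and Csn1s2a move together and peak in WT 5, Odam peaks in GT 1, and Amtn lies at or above its mean in the wildtype tumors.

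The genes that govern casein transcription did not pass the test either. Over all 21034 tested genes, 10813 had a higher and 10221 a lower log2 mean in gene trap tumors. Of 13 listed regulators, all were tested, and 4 had a higher and 9 a lower log2 mean in gene trap tumors. Of the 13, 0 passed at an adjusted or unadjusted p under 0.05, where 0% and 2.28% of all tested genes did. The median log2 difference of the 13 was -0.02. Stat5a, the factor that prolactin activates, was at 2632 ± 382 in wildtype and 2730 ± 317 in gene trap tumors. Prlr, the prolactin receptor, was at 4770 ± 486 and 4779 ± 1442, and Elf5, a transcription factor of the alveolar lineage, at 8707 ± 1446 and 7935 ± 1030 (SD, n = 5 each). The sum of the 13 had r = 0.54 with Amtn, and 0.25 without the 2 tumors farthest from the median of Amtn. It had r = -0.09 with Odam. Nfib and Ehf had the highest means of the 13 (33310 and 31602), so the sum mostly follows these genes.

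Other milk genes were present in every tumor. Of 14 listed genes of milk secretion, 2 had a higher and 12 a lower log2 mean in gene trap tumors (median log2 difference -0.22), 0 passed at an adjusted p under 0.05 and Muc15, a mucin of the milk fat globule, had an unadjusted p of 0.0472 (adjusted p = 0.9997, limma), where 2.28% of all tested genes had one under 0.05. Lalba, alpha-lactalbumin, ranged from 2692 to 8465, and Wap, whey acidic protein, from 645 to 4721. The r of Amtn was -0.25 with Lalba and -0.06 with Wap, and that of Odam was -0.07 and -0.26. These values depended on the tumors used. For Amtn they were 0.31 and 0.33 without the 2 tumors farthest from its median, and -0.59 and -0.41 as deviations from the genotype means. For Odam they were -0.53 and -0.52 without the 2 tumors farthest from its median, and -0.06 and -0.24 as deviations.

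Few genes of the enamel programme itself could be set beside Amtn and Odam. Of 25 listed genes of enamel and other mineralized tissue, 13 were in the analysed table and 12 were tested, and the enamel matrix genes Ambn, Enam and Amelx and the enamel proteases Klk4 and Mmp20 were not analysed here. Of the 12, 6 had a higher and 6 a lower log2 mean in gene trap tumors (median log2 difference 0.03). At an adjusted or unadjusted p under 0.05, 0 of the 12 passed, where 0% and 2.28% of all tested genes did. Odaph, an enamel maturation gene, was under the filter on low values, at 0.881 to 16.9. Wdr72, which is needed for enamel maturation, was at 578 ± 114 in wildtype and 531 ± 87.6 in gene trap tumors. Dspp, known from dentin, was at 9136 ± 2455 and 9557 ± 1072 (SD, n = 5 each). The summed list had r = 0.19 with Amtn and -0.21 with Odam. For Amtn rho was -0.16, and r was 0.50 without the 2 tumors farthest from its median. Spp1, Sparc and Sparcl1 had the highest means of the list (44730, 13419 and 12130). The sum mostly follows these genes and does not measure the enamel genes alone.

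Odam was high where the summed markers of salivary gland were high. Of the 10 listed salivary markers, 7 were analysed, and Muc10, Prol1 and Bpifa2 were not analysed here. Their sum was 9270 to 22993 in wildtype tumors and 5367 to 143343 in gene trap tumors, where gene trap 1 was the highest at 143343 and gene trap 5 the next at 38166. Most of the sum was Amy1 in gene trap 1 (107971) and Car6 in wildtype 2 (9833 of 12154). The sum thus follows different markers in different tumors. The r of Odam with this sum was 0.91 and rho was 0.82, r was 0.72 without gene trap 1, and r was 0.65 without gene trap 1 and wildtype 5, the tumors farthest from the median of Odam. Without gene trap 2 it was 0.91. Amtn had r = 0.08 and rho = 0.37 with the same sum, and r = 0.48 and rho = 0.60 without gene trap 1. Whether the likeness to this sum differs between Odam and Amtn was not tested.

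The 7 markers differed in their likeness to Odam. Amy1, salivary amylase, was at 2073, 69.7, 115, 92.3 and 11940 in the wildtype tumors 1 to 5 and at 107971, 407, 53.7, 58.6 and 16519 in the gene trap tumors 1 to 5. The 4 tumors with the most Amy1, gene trap 1, gene trap 5, wildtype 5 and wildtype 1, were also the 4 with the most Odam. The r of Odam was 0.85 with Amy1 (0.81 without gene trap 1), 0.85 with Smr3a (0.74 without it), a salivary gene that lies between Csn3 and Amtn, and 0.80 with Dcpp1 (0.58 without it). It was 0.73 with Dcpp2 (0.34 without it) and -0.25 with Smr2 (0.07 without it), another salivary gene of this region, which was at 10.48 in gene trap 1 and at 8.37 to 83.7 in the others. Smr3a was at 3370 in gene trap 1, 355 in gene trap 5, 199 in wildtype 5 and 61.1 in wildtype 1, and at 1.11 to 14.2 in the other tumors. Bhlha15, a factor of secretory cells, and Car6, a secreted carbonic anhydrase, were high in every tumor (2103 to 3850 and 2006 to 15530), and their r with Odam was -0.11 and 0.33. By limma 0 of the 7 differed between genotypes at an adjusted or unadjusted p under 0.05 (median log2 difference 1.39). Over all tested genes, 0% and 2.28% did. Amy1 and the Dcpp genes have near-identical copies, so their counting is uncertain. The part of salivary cells in the Odam values was not tested.

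Fibroblast and macrophage markers also varied with Odam, mainly through gene trap 1 and wildtype 5. The 5 fibroblast markers summed to 117683 in gene trap 1, 81985 in wildtype 5 and from 38198 upward in the other tumors. Their r with Odam was 0.77, with 0.38 without gene trap 1 and 0.06 without gene trap 1 and wildtype 5. The 4 macrophage markers summed to 5821 in gene trap 1 and were highest in wildtype 5 at 6270. The r of their sum with Odam was 0.64, with 0.53 without gene trap 1 and 0.15 without both tumors. Within both lists 0 genes passed at an adjusted or unadjusted p under 0.05, where 0% and 2.28% of all tested genes did. The part of fibroblasts and macrophages in the Odam values was not tested.

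Amtn was high where the summed markers of basal or myoepithelial cells were high, less so within the genotypes. The 6 markers (Krt5, Krt14, Krt17, Acta2, Trp63 and Oxtr) summed to 6768, 8401, 6333, 8187 and 6805 in the wildtype tumors 1 to 5 and to 5796, 5488, 6136, 4893 and 6544 in the gene trap tumors 1 to 5. The groups overlapped only by wildtype 3 lying below gene trap 5. The r of Amtn with this sum was 0.77 and rho was 0.76, r was 0.74 without the 2 tumors farthest from the median of Amtn and 0.79 without gene trap 2, and r was 0.45 as deviations from the genotype means. All 6 markers had a lower log2 mean in gene trap tumors (median log2 difference -0.33), where 10221 of 21034 tested genes did. By limma 0 of 6 had an adjusted p under 0.05, where 0% of all tested genes did. At the unadjusted level, which 2.28% of tested genes passed, Krt17 had an unadjusted p of 0.0174 with a log2 difference of -0.63 (SE 0.23, adjusted p = 0.9997, limma). With single markers the r of Amtn was between 0.25 for Oxtr and 0.61 for Krt17. As deviations from the genotype means it was 0.45 for Krt5, 0.32 for Krt14, 0.22 for Krt17, 0.02 for Trp63, -0.03 for Acta2 and -0.06 for Oxtr. The part of these cells in the Amtn values was not tested. The r of Amtn with Resf1 itself was 0.59, and 0.16 as deviations from the genotype means. With Car6 it was 0.73, and 0.80 as deviations from the genotype means.

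**Figure D4:**
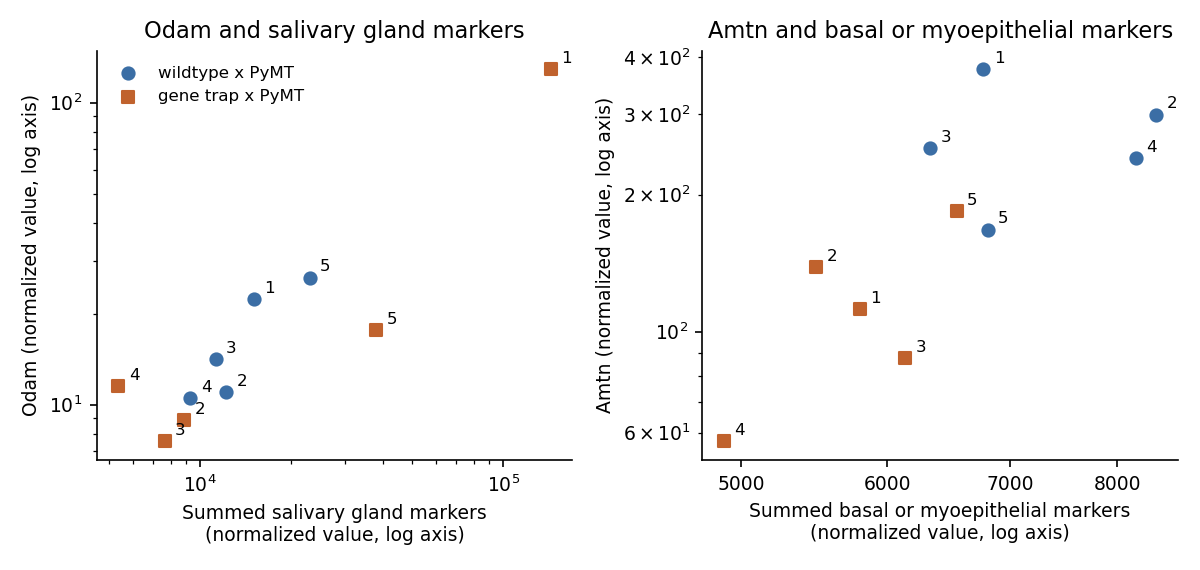
Left, Odam against the summed salivary gland markers, and right, Amtn against the summed basal or myoepithelial markers, in normalized values on log axes, with 1 point per tumor (circles, wildtype x PyMT, and squares, gene trap x PyMT) and its replicate number. Gene trap 1 is the farthest point on the left, and on the right the wildtype tumors lie higher in both measures apart from wildtype 3 and 5.

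The likeness to the other marker lists was as follows over all 10 tumors. For Amtn, r was 0.02 with the 6 luminal markers, 0.12 with 4 analysed squamous or hair follicle markers, -0.03 with macrophages, -0.26 with fibroblasts, 0.01 with B and plasma cells, 0.06 with T cells, -0.07 with adipocytes and -0.48 with skeletal muscle. Several of these values rest on few tumors. Without the 2 tumors farthest from the median of Amtn, r was 0.57 with luminal and 0.64 with squamous or hair follicle markers. It was then -0.25 with macrophages, -0.43 with fibroblasts, -0.31 with B and plasma cells, -0.61 with T cells and 0.06 with adipocytes. The r of Amtn with the 4 skeletal muscle markers was -0.58 (rho -0.75) without gene trap 1, -0.05 without the 2 farthest tumors and -0.76 as deviations from the genotype means. For Odam, r was -0.44 with luminal, -0.60 with squamous or hair follicle, -0.13 with basal, -0.30 with B and plasma cell, -0.03 with T cell, 0.10 with adipocyte and -0.25 with skeletal muscle markers. Without the 2 tumors farthest from the median of Odam, r was -0.80 with skeletal muscle markers. With the other lists of the sentence before it was then between -0.38 for adipocyte and 0.13 for basal markers. The basal markers differed in their likeness to Odam. With Trp63 the r was 0.35, and 0.84 without gene trap 1. Without that tumor it was 0.55 with Krt5, 0.22 with Krt17, -0.09 with Krt14, -0.25 with Oxtr and -0.27 with Acta2. With the basal sum it was then 0.16. In all the lists of this paragraph 0 genes passed at an adjusted or unadjusted p under 0.05 by limma, apart from Krt17 at the unadjusted level. Over all tested genes, 0% and 2.28% passed.

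Among all tested genes, those most like Amtn were 1700016K19Rik (r = 0.87), Dlec1 (0.86), Fech (0.86), Pea15a (0.85), Gm5605, Gm5814 and Gm5150 (each 0.82), and Spire1, Casp4 and Gm37446 (each 0.81). Fech, the enzyme that inserts iron into heme, ranged only from 1145 to 1487. An r of 0.87 is low for the nearest gene, since the highest r of a tested gene with any other had a median of 0.95 and a 5th percentile of 0.90. Without gene trap 2 the r of these 10 genes with Amtn lay between 0.81 and 0.93. No casein was near Amtn in this order, where Csn1s2b stood at place 1243 and Csn3 at place 14596.

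The genes most like Odam were Ggh (r = 0.95), Zfp809 and Gm43359 (each 0.92), Dnase1 and Zkscan3 (each 0.91), Gata2 and Gm48254 (each 0.90), and Mrc2, Zfp451 and St3gal6 (each 0.89). All 10 were highest in gene trap 1, as Odam was. Dnase1, a secreted endonuclease, was at 19463 there and at most 1902 in the other tumors, and Ggh, gamma-glutamyl hydrolase, was at 6869 there and at most 1626 elsewhere. Without gene trap 1 the r of these 10 genes with Odam lay between 0.43 and 0.90, and without gene trap 2 between 0.88 and 0.95. The salivary genes Smr3a and Amy1 stood at places 22 and 23 in this order over all 10 tumors, and the nearest casein, Csn1s2b, at place 2961. These places rest on gene trap 1. Without it the r of Odam was 0.81 with Amy1, 0.75 with Csn1s2b and 0.74 with Smr3a. With the other caseins it was then between 0.10 for Csn3 and 0.58 for Csn1s2a.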

How the data were processed

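Total RNA was extracted with Trizol from primary mammary tumors of wildtype and gene trap littermates, and libraries were made with TruSeq Stranded Total RNA. The labels describe 16 tumors, 8 per group. Of the 16 value columns, 10 were matched by name to a tumor, 5 per group, and 6 columns were not used. The submitters' processing notes name mm39, Partek, STAR (version 2.7.8a) and DESeq2, and the annotation and counter are not given in the sources used here. The authors deposited a signal per gene, estimated counts normalized by the median ratio method. Column medians lay at ratios of 1.005 to 1.006 to the geometric mean, with 0 zeros, so depth is unknown and intervals that need it are not given.

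Symbols were found for 22899 (97.0%) of 23609 IDs. Values were analysed as log2(value + 1), and 21034 genes with a mean of at least 10 entered a limma fit (limma version 3.58.1 under R 4.3.3) with the mean-variance trend and Benjamini-Hochberg adjustment. The fit was tested on simulated data. Levels per kilobase used the median length of GENCODE M21 basic transcripts (Amtn 1022 bases, Odam 1121 bases). Promoters came from RefSeq (GRCm38.p6), whose build differs from the files' build, so coordinates are given for promoters only, on the RefSeq build. The members and lists were chosen with earlier results of these data known. Genes named are Resf1, both members, the caseins, their neighbours, the lists and the 10 genes of highest r to each member. The lists cover enamel and mineralized tissue, milk secretion, casein regulators and markers of luminal, basal, squamous, salivary, fibroblast, macrophage, B and plasma, T, adipocyte and skeletal muscle cells. The p-values measure the spread between tumors, each treated as coming from a separate animal. The sample titles do not name the animals. Same-numbered tumors differ in genotype and so come from different animals. Their deviations correlated at -0.16 to 0.15 over 5 pairs (mean -0.01), so no pairing by number was seen. So few pairs cannot exclude a pairing with a small effect. Alternatives were a replicate block, each tumor left out, other pseudocounts and filters, quantile normalization, no variance trend, weights per tumor, Spearman's rho and deviations from genotype means. Plots used matplotlib 3.10.9 under Python 3.11.15.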

Additional observations from a re-analysis of the deposited data

Results flagged for a closer look

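For 21 genes (Resf1, Amtn, Odam, the caseins, the salivary markers and 6 milk, mineralized tissue and immune genes), the 5 tumors of each genotype were examined. Of these 42 groups, 15 held a tumor whose gap to its nearest neighbour was large against the range of the group by Dixon's criterion. The gaps were taken on normalized values without the log2 step. Chance alone meets the criterion in about 1 in 20 groups where values follow a normal distribution. Whether that rate holds for these values was not tested. These genes were chosen with their values known, so the number of such groups is a description and supports nothing. For Odam, gene trap 1 stood at 129 with the other gene trap tumors at 7.56 to 17.6, and no Amtn group held such a tumor. The same gene trap 1 stood apart for salivary genes, with Amy1 at 107971 (others 53.7 to 16519), Smr3a at 3370 (others 2.33 to 355), Dcpp1 at 15687 (others 16.2 to 2325) and Dcpp2 at 5669 (others 37.9 to 943). Among the wildtype tumors, wildtype 5 stood apart for Amy1 at 11940 (others 69.7 to 2073) and Dcpp1 at 1183 (others 18.6 to 264), and its Odam of 26.4 was the highest wildtype value.

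The caseins stood apart in other tumors. Gene trap 4 stood apart for Csn2 at 676 (others 76.7 to 223), Csn1s2a at 579 (others 71.0 to 192) and Csn3 at 180601 (others 127658 to 141356), and it held the lowest Amtn of all tumors, 57.45. Wildtype 5 stood apart for Csn1s2a at 1982 (others 60.9 to 492). Glycam1 stood apart in wildtype 5 at 502 (others 5.70 to 93.3) and in gene trap 3 at 349 (others 5.77 to 23.4), and Jchain, the immunoglobulin joining chain, in the same tumors at 193 (others 16.6 to 43.2) and 184 (others 6.87 to 28.8).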

How the results depend on the processing

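The depth behind each value is unknown, and low genes such as Odam and Csn1s2b carry a counting error that was not measured. The count of genes at an adjusted p under 0.05 was 0 in each of 18 alternatives, and the count at an unadjusted p under 0.05 ranged from 308 without wildtype replicate 4 to 692 without gene trap replicate 4, beside 479. The replicate block gave 0 calls, 426 genes at an unadjusted p under 0.05 and a log2 difference of -1.26 for Amtn, and it changed no call. Amtn was lower in gene trap tumors in each of 18 alternatives (-1.45 to -1.03). Odam ranged from -0.50 without gene trap replicate 1 to 0.48, and with a mean of at least 50 as the filter it was not tested, nor was Csn1s2b. Csn1s1 ranged from -0.76 to 0.21 on leaving out each tumor, with 0.21 without wildtype replicate 5. The r of Amtn with Odam ranged from -0.16 to 0.43 on leaving out each tumor, with 0.43 without gene trap replicate 1. That of Amtn with the summed caseins ranged from -0.42 to 0.32, with 0.32 without gene trap replicate 4, and was -0.54 as deviations from genotype means. That of Odam with the summed caseins ranged from -0.28 to 0.16 on leaving out each tumor and was 0.50 with quantile normalization, and the cause was not tested. The mean log2 value of the caseins in place of their sum, chosen after seeing the data, gave r = -0.03 for Amtn and 0.08 for Odam.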

Other observations

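T cell markers varied between tumors, and their sum had r = 0.06 with Amtn and -0.03 with Odam over 10 tumors. The value for Amtn rests on few tumors, since it was -0.61 without the 2 tumors farthest from the median of Amtn. In gene trap 3, the 3 T cell markers Cd3e, Cd3d and Cd8a summed to 187, Jchain was at 184, Amtn at 87.3 and Odam at 7.56. In wildtype 1, with the next highest T cell sum of 100.7, Amtn was at 377 and Odam at 22.4. In wildtype 5, where Jchain was at 193, the T cell markers summed to 56.0, Amtn was at 168 and Odam at 26.4.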
